A study of Bos taurus with 6 samples.

Results

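AMP-activated protein kinase (AMPK) and the LKB1 complex that switches it on were examined as a set of 10 genes in bovine blastocysts, among 36075 genes in the deposited table. The set holds 6 genes for AMPK subunits (PRKAA1, PRKAA2, PRKAB1, PRKAB2, PRKAG1 and PRKAG2) and 4 genes for the LKB1 complex (STK11, STRADA, STRADB and CAB39). Members were chosen by gene name, with their control and MT-treated values in these libraries already known. The values of the members are therefore given as a description, and no test is reported for them. Every name matched exactly 1 row of the table, and 9 of the 10 genes reached 1 TPM in 3 or more libraries, which was the level required for testing among all genes. That level can be reached through the higher group alone, so the 9 genes do not stand for the whole set.

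The study asked how melatonin (MT), an indoleamine hormone and antioxidant, given during oocyte maturation changes the blastocyst transcriptome, and AMPK signaling is one of the pathways it considers. Cumulus-oocyte complexes from slaughterhouse ovaries were matured for 22 h with 1e-07 mol/L MT or without MT (control), then fertilized and cultured in vitro to blastocysts without any further difference between the groups being described. Each group had 3 libraries from independent in vitro production runs, and each library was made from a pool of 3 blastocysts. Within a run, pooled complexes were divided between the treatments at random, so control and MT-treated libraries may share runs, but the labels do not tie libraries to runs. Breed, sire and embryo sex are not given in the labels, and values of a pool do not separate trophectoderm from inner cell mass. In a pool, fewer cells of a type and less RNA per cell cannot be told apart. The values are TPM (transcripts scaled for gene length and for the total of the library), so that levels of different genes within a library can be set side by side.

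AMPK is a heterotrimer. The alpha subunit is the kinase, the beta subunit is the scaffold and binds glycogen, and the gamma subunit binds AMP, ADP and ATP and so senses the energy state of the cell. The kinase is activated when its activation loop is phosphorylated, mainly by LKB1, which works as a complex with a STRAD pseudokinase and the scaffold MO25. Active AMPK lowers anabolic pathways such as lipid synthesis and mTORC1 signaling and raises catabolic ones such as autophagy and fatty acid oxidation.

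The control and MT-treated libraries stood apart in the number of genes with any signal, which ranged from 8854 to 8953 in control and from 14372 to 14408 in MT-treated blastocysts. Of the 11953 genes tested, 4037 (33.8%) were listed at 0 in all 3 control libraries, and the treatment cannot be told apart from this difference in detection. The depth of the libraries cannot be read from TPM and was not used here, so a gene listed at 0 is given as listed, with no upper limit and no fold change. Pearson's r of log2(TPM + 1) across tested genes was at least 0.991 between libraries of a group and at most 0.546 between groups. Of 14 markers of the blastocyst lineages, 5 were listed at 0 in every control library. They were the trophectoderm factor CDX2 (15.03 to 17.2 TPM with MT), the inner cell mass factor NANOG (8.23 to 8.93 TPM) and the hypoblast markers PDGFRA (22.5 to 24.2 TPM), SOX17 (0.14 to 0.2 TPM) and GATA4, which was also at 0 with MT. Markers of trophectoderm summed to 11340 to 11680 TPM in control and 10510 to 10860 TPM in MT-treated libraries. The lower sum was due to KRT8, the most abundant (8540.61 to 8828.17 and 6755.89 to 7009.57 TPM), and the other 6 trophectoderm markers were higher in each MT-treated library than in any control library. Markers of the inner cell mass summed to 188 to 191 TPM in control and 206 to 209.9 TPM in MT-treated libraries, nearly all of it POU5F1 (188.31 to 191.28 and 190.57 to 194.08 TPM), which did not pass the test (adjusted p = 0.223 by limma). Those of hypoblast summed to 0.2 to 0.44 TPM and 53.5 to 57.5 TPM. Of 6 cumulus and granulosa markers in the table, FSHR alone was above 0.01 TPM, with 17.2 to 19.2 TPM in control and 15.03 to 17.1 TPM in MT-treated libraries. The 7 oocyte markers were listed at 0 in all control libraries and summed to 0.76 to 1.09 TPM in the MT-treated libraries. The part of these differences in the results that follow was not tested.

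In control blastocysts PRKAG1 was the only AMPK subunit gene of the 6 with a value in every library, whereas all 4 genes of the LKB1 complex were present. In MT-treated blastocysts 5 subunit genes had a value in every library, and STK11 and STRADA were lower than in control. Over the 10 genes, the MT-treated values lay wholly above the control values for 5 genes and wholly below them for 3 genes. Groups without overlap were the rule across the table, with 61.9% of the tested genes wholly higher and 34.2% wholly lower. Since the contrast was known when the genes were chosen, nothing is read from these counts.

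**Figure D1:**
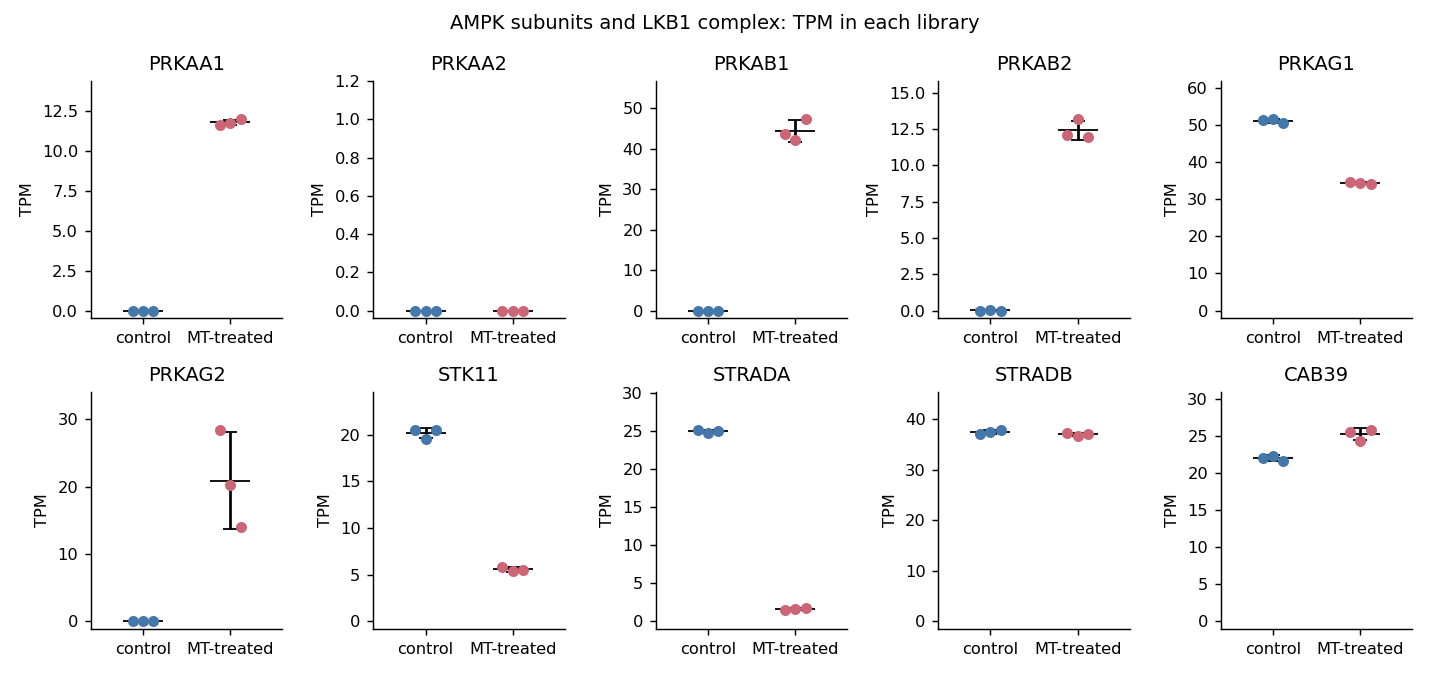
TPM of each AMPK subunit and LKB1 complex gene in the 3 control and 3 MT-treated libraries (points), with the mean and SD as bars, and a separate axis for each gene. PRKAA1, PRKAB1, PRKAB2 and PRKAG2 were at or near 0 in control, STK11 and STRADA were lower in MT-treated libraries, and the groups of STRADB overlapped, with values from 36.65 to 37.89 TPM.

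The catalytic subunit alpha 1, encoded by PRKAA1 (ENSBTAG00000000013), was listed at 0 in all 3 control libraries and measured 11.65, 11.75 and 11.98 TPM with MT. The MT-treated values had a coefficient of variation of 1.44%. PRKAA2 (ENSBTAG00000018747), which encodes the alternative catalytic subunit alpha 2 known mainly from muscle and heart, was listed at 0 in all 6 libraries. PRKAA1 thus accounted for all of the alpha subunit TPM wherever any was listed, and no kinase subunit was listed in control.

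Both genes for the beta scaffold followed the same pattern as PRKAA1. PRKAB1 (ENSBTAG00000005940), encoding beta 1, was listed at 0 in the control libraries and measured 43.67, 42.04 and 47.25 TPM with MT, which made it the most abundant of the 10 genes there. PRKAB2 (ENSBTAG00000014387), encoding beta 2, measured 0, 0.02 and 0 TPM in controls and 12.08, 13.16 and 11.93 TPM with MT. All MT-treated values of both genes lay far above all control values. In MT-treated blastocysts PRKAB1 made up 78.1% ± 1.85 (SD, n = 3) of the summed beta TPM.

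The gamma subunits, which bind the adenine nucleotides, were the only AMPK subunit class with a value in every library. PRKAG1 (ENSBTAG00000014426), encoding gamma 1, measured 51.42, 51.58 and 50.62 TPM in controls and 34.67, 34.48 and 34.15 TPM with MT. All MT-treated values were lower, at 0.672 times the control mean in TPM. The difference was -0.56 on the log2(TPM + 1) scale (standard error 0.021) and shrank to -0.08 when each library was centred on the median of the 5988 genes that reached 1 TPM in every library, a step that removed a shift of -0.479 between the groups. Of the members whose groups did not overlap, PRKAG1 came closest to no difference under a change of scaling.

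PRKAG2 (ENSBTAG00000002917), encoding gamma 2, was listed at 0 in the control libraries and measured 28.41, 20.23 and 14.06 TPM with MT. It was the most variable of the members in the MT-treated group, with a coefficient of variation of 34.4%, against 0.764% to 6.99% for the other 8 members listed there. The share of PRKAG1 in the summed gamma TPM was 100% in each control library and 55.0%, 63.0% and 70.8% in the MT-treated libraries. PRKAG3, the gamma 3 subunit of skeletal muscle, was listed at 0 in all 6 libraries and does not belong to the set. The gamma TPM summed to 51.2 ± 0.514 in control and to 55.3 ± 7.46 in MT-treated blastocysts (SD, n = 3 each), and the groups overlapped because the lower PRKAG1 and the higher PRKAG2 offset each other.

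**Figure D2:**
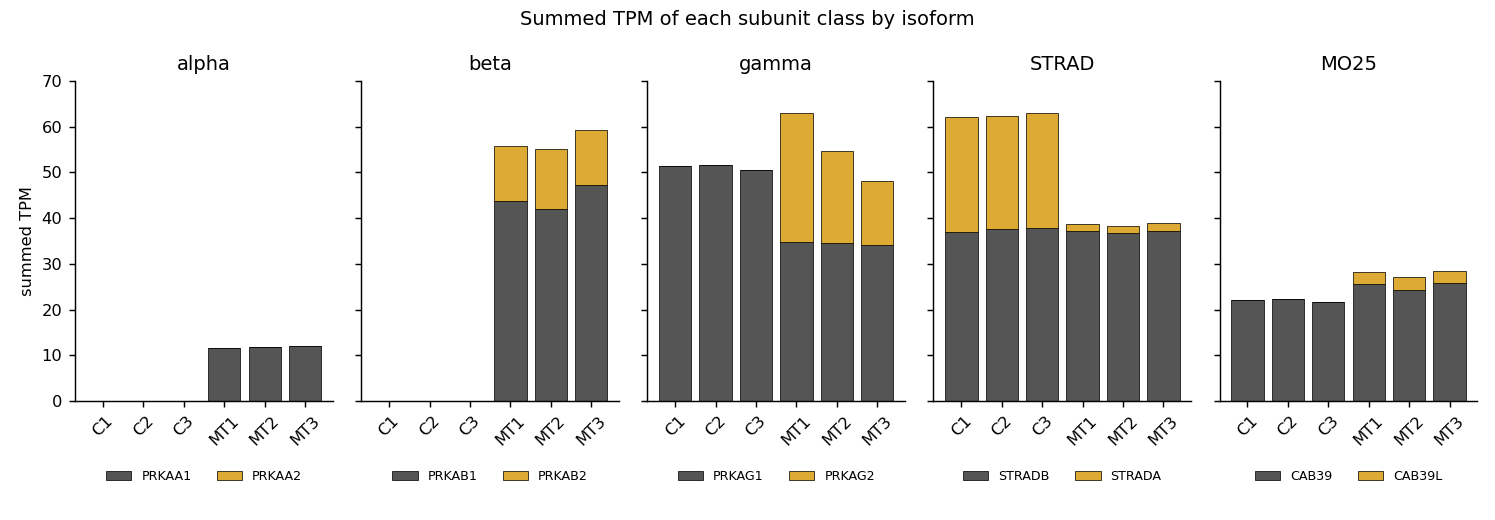
Summed TPM of the alpha, beta and gamma subunits, of STRAD and of MO25 in each control (C1 to C3) and MT-treated (MT1 to MT3) library, with each bar divided by isoform on a common axis from 0. The alpha and beta bars were absent in control apart from 0.02 TPM of PRKAB2, the gamma bars overlapped between groups, and the STRAD bars fell short of control through STRADA.

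The levels of the 3 subunit classes can be compared per length within a library. In MT-treated blastocysts the alpha class summed to 11.8 ± 0.169 TPM, the beta class to 56.7 ± 2.16 TPM and the gamma class to 55.3 ± 7.46 TPM (SD, n = 3 each). The beta and gamma sums overlapped, and every alpha value lay below every value of both other classes. These are levels of transcripts and do not give the amount of assembled trimer.

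STK11 (ENSBTAG00000011639), which encodes the kinase LKB1, measured 20.52, 19.53 and 20.48 TPM in controls and 5.83, 5.35 and 5.55 TPM with MT. The control mean was 3.62 times the MT-treated mean in TPM, and the difference on the log2(TPM + 1) scale was -1.69 (standard error 0.041). The groups did not overlap, and the direction was lower in MT-treated blastocysts under every scaling tried, from -1.21 after median centring to -3.11 after quantile normalization. PRKAA1, the gene for its best known substrate, was listed at 0 in control, so no contrast in direction with STK11 is drawn.

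STRADA (ENSBTAG00000000056) and STRADB (ENSBTAG00000019298) encode the pseudokinases that bind LKB1, hold it in its active shape and keep it in the cytoplasm. STRADA measured 25.11, 24.70 and 25.03 TPM in controls and 1.5, 1.66 and 1.72 TPM with MT. The control mean was 15.3 times the MT-treated mean in TPM, the widest gap among the members above 0 in all libraries. STRADB measured 37.03, 37.59 and 37.89 TPM in controls and 37.20, 36.65 and 37.15 TPM with MT. The groups of STRADB overlapped, and it was the only member of the 9 reaching the level for testing for which they did. Its difference of -0.02 on the log2(TPM + 1) scale (standard error 0.022) became 0.46 after median centring and 0.23 after quantile normalization, with the MT-treated values then wholly above control.

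The proportion of the STRAD isoforms therefore differed. STRADA made up 39.95% ± 0.405 of the summed STRAD TPM in control and 4.21% ± 0.294 in MT-treated blastocysts (SD, n = 3 each), a comparison within each library that a common scaling factor does not alter. After quantile normalization the shares were 41.6% and 1.49%. The STRAD TPM summed to 62.45 ± 0.414 in control and to 38.6 ± 0.287 in MT-treated blastocysts (SD, n = 3 each).

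CAB39 (ENSBTAG00000040055), which encodes the scaffold MO25 alpha, measured 22.08, 22.34 and 21.62 TPM in controls and 25.53, 24.29 and 25.79 TPM with MT. The MT-treated values were all higher, at 1.145 times the control mean in TPM, and the difference on the log2(TPM + 1) scale was 0.19 (standard error 0.033), the same after quantile normalization and 0.67 after median centring. Its paralog CAB39L (MO25 beta), outside the set, was listed at 0 in control and measured 2.71, 2.94 and 2.57 TPM with MT. The ratio of STK11 to CAB39, both partners of 1 complex, was 0.929, 0.874 and 0.947 in controls and 0.228, 0.220 and 0.215 with MT, with no overlap.

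**Figure D3:**
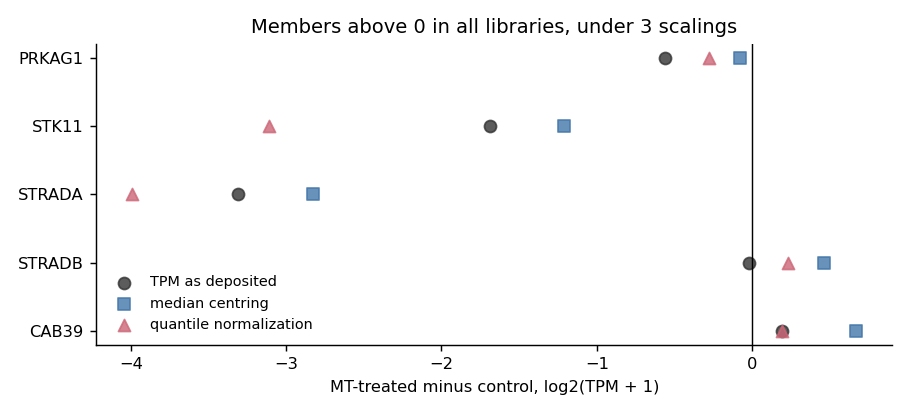
Difference between MT-treated and control means on the log2(TPM + 1) scale for the 5 members above 0 in all libraries, with TPM as deposited, after median centring and after quantile normalization. STK11 and STRADA stayed below 0 under all 3 scalings, PRKAG1 came close to 0 at -0.08, and STRADB passed from -0.02 to above 0.

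The order of the members within a group differed between the groups. In control blastocysts it ran from PRKAG1 (mean 51.2 TPM) through STRADB (37.5 TPM), STRADA (24.95 TPM) and CAB39 (22.01 TPM) to STK11 (20.2 TPM), and neighbours in this order did not overlap. In MT-treated blastocysts it ran from PRKAB1 (44.3 TPM) through STRADB (37.0 TPM), PRKAG1 (34.4 TPM), CAB39 (25.2 TPM), PRKAG2 (20.9 TPM), PRKAB2 (12.4 TPM) and PRKAA1 (11.8 TPM) to STK11 (5.58 TPM) and STRADA (1.63 TPM). There CAB39 overlapped PRKAG2 and PRKAB2 overlapped PRKAA1, so the order within these pairs is not resolved by 3 libraries. With MT, the mean of PRKAB1 exceeded that of 78.7% of the tested genes, that of PRKAA1 42.7% and that of STRADA 8.84%.

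Being listed at 0 in control was common at the level of these genes. Of the 5175 tested genes whose mean with MT lay from 10 to under 50 TPM, 37.2% were listed at 0 in all 3 control libraries. In that band lay 7 members, of which PRKAA1, PRKAB1 and PRKAG2 were listed at 0 in control, PRKAB2 was near 0, and PRKAG1, STRADB and CAB39 had a value in each library. Genes that most cells use were found on both sides. The 12 genes for RNA polymerase II subunits, of which 3 lay in the band and most others above it, all had a value in each control library, with POLR2A the lowest at 1.17 to 1.75 TPM. By contrast, APRT, a gene of adenine salvage, was listed at 0 in all control libraries. Over the 9 members the median difference was 0.19 on the log2(TPM + 1) scale, and over the 5 members above 0 in all libraries it was -0.56. The corresponding medians were 1.12 over all 11953 tested genes and -0.19 over the 6925 of these above 0 in all libraries.

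**Figure D4:**
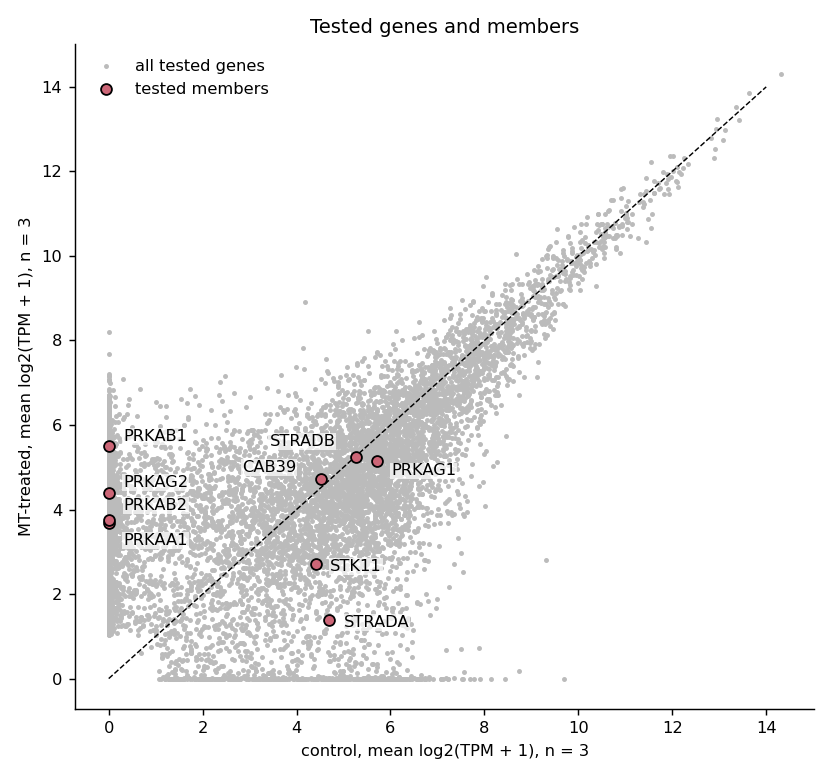
Mean log2(TPM + 1) of 3 control libraries (horizontal) against 3 MT-treated libraries (vertical) for the 11953 tested genes (grey) and the 9 tested members (red), with a dashed line of equal values. PRKAA1, PRKAB1, PRKAB2 and PRKAG2 lie in the column of genes at or near 0 in control, and PRKAG1, STK11 and STRADA lie below the line.

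Genes around AMPK that are not members were taken from 5 lists of 90 genes in all, of which 73 were tested. Of these, 49 rose and 22 fell with MT (limma, adjusted p under 0.05), and 2 did not pass. The shares of 67.1% higher and 30.1% lower stood beside 61.6% higher and 34.1% lower among all tested genes. Of the 49 that rose, 35 stayed under 1 TPM in every control library, 26 of them at 0. They entered the test only through their values with MT, so their direction was fixed by the filter, and no p is given for them. Of the 22 that fell, 1 stayed under 1 TPM in every MT-treated library. Among the 37 list genes that reached 1 TPM in both groups, 14 rose and 21 fell, beside 2285 and 3410 of 6210 such genes in the whole table. Of the 43 tested genes above 0 in all libraries, 20 rose and 21 fell. The median difference of the 73 genes was 1.37 on the log2(TPM + 1) scale, and that of the 43 was -0.14. After quantile normalization 36 rose and 34 fell, and 5550 and 5311 of all tested genes did, so the balance between rises and falls depended on the scaling. Quantile normalization gives every library the same distribution of values. Genes listed at 0 in control then take values above 0, with a control mean of 1.11 on the log2(TPM + 1) scale for PRKAA1. The balance after that step is therefore no result about these genes.

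Upstream of AMPK, in a list of other activating kinases, phosphatases and modulators, 10 of 16 tested genes rose and 6 fell (limma). These shares of 62.5% and 37.5% stood beside 61.6% and 34.1% among all tested genes. Of the 10 that rose, 7 stayed under 1 TPM in every control library and were tested only through their values with MT. CAMKK2, the calcium-dependent kinase that phosphorylates the activation loop of AMPK independently of LKB1, was listed at 0 in control and measured 33.66, 32.21 and 32.64 TPM with MT. MAP3K7, which encodes TAK1, another kinase reported to act on AMPK, fell from 38.8 ± 0.834 to 4.84 ± 0.464 TPM (SD, n = 3 each, adjusted p = 3.83e-08 by limma). As CAMKK2 was tested only through its values with MT, its direction was fixed by the filter and is not set against that of MAP3K7. FLCN, which encodes folliculin, a partner of AMPK through the FNIP proteins, measured 0.66, 0.27 and 0.54 TPM in controls and 30.37, 29.87 and 28.76 TPM with MT. The phosphatase gene PPM1A rose from 2.74 ± 0.301 to 34.3 ± 7.06 TPM (SD, n = 3 each, adjusted p = 2.15e-06 by limma). AXIN1, which tethers LKB1 to AMPK at the lysosome, fell from 7.54 ± 0.301 to 3.60 ± 0.117 TPM (SD, n = 3 each, adjusted p = 1.55e-06 by limma). The difference of AXIN1 depended on scaling, with -0.89 on the log2(TPM + 1) scale as deposited, -0.41 after median centring and -2.50 after quantile normalization. After median centring 11 genes of this list rose and 3 fell, and after quantile normalization 8 rose and 8 fell.

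LKB1 also phosphorylates a family of AMPK-related kinases, which act in cell polarity and in transcriptional control. Of 9 such genes tested, 8 rose and MARK1 fell (limma). All 8 stayed under 1 TPM in every control library, 4 of them at 0, so the count of rises was fixed by the filter and is no result about these kinases. MARK1, a microtubule affinity regulating kinase, measured 41.14, 41.10 and 40.66 TPM in controls and 5.74, 5.58 and 5.36 TPM with MT (adjusted p = 2.6e-09 by limma). SIK3, a salt-inducible kinase, measured 0.08, 0.06 and 0.06 TPM in controls and 38.72, 37.78 and 43.40 TPM with MT. NUAK2 was listed at 0 in control, with 19.44, 19.27 and 19.42 TPM in the libraries given MT. BRSK1, best known from neurons, measured 0.14, 0.28 and 0.28 TPM in controls and 9.66, 9.97 and 9.24 TPM with MT, but its difference of 3.11 on the log2(TPM + 1) scale turned to -0.21 after quantile normalization. With that normalization 4 genes of this list rose and 4 fell, and with a filter at 5 TPM 5 rose and 1 fell.

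Among substrates and effectors of AMPK, 18 of 30 tested genes rose and 10 fell (limma), and 12 of the 18 stayed under 1 TPM in every control library. The shares of 60.0% higher and 33.3% lower stood beside 61.6% and 34.1% among all tested genes. RPTOR, the mTORC1 subunit that AMPK phosphorylates, fell from 81.4 ± 4.45 to 12.98 ± 0.429 TPM, and PIK3C3, the lipid kinase of autophagy initiation, fell from 164 ± 1.19 to 39.4 ± 1.69 TPM (SD, n = 3 each, adjusted p = 1.72e-08 and 9.74e-09 by limma). TFEB, the transcription factor of lysosomal genes, measured 0.37, 0.39 and 0.28 TPM in controls and 106.31, 82.26 and 102.28 TPM with MT. HDAC5, a class IIa deacetylase exported from the nucleus on phosphorylation, rose from 1.43 ± 0.0666 to 13.9 ± 0.201 TPM (SD, n = 3 each, adjusted p = 4.31e-09 by limma). The difference of HDAC5 shrank from 2.62 on the log2(TPM + 1) scale to 0.50 after quantile normalization. PFKFB3, which makes the glycolytic activator fructose 2,6-bisphosphate, was listed at 0 in control and measured 40.44, 45.25 and 50.05 TPM with MT. Its paralog PFKFB2, named after its values were seen, was the only one of the 30 listed at 0 in all MT-treated libraries, with 31.83, 32.00 and 28.54 TPM in control. Of the 30 tested genes, FOXO3 and CPT1A did not pass the test, and both are named after their values were seen. FOXO3 had 1.97 to 2.24 TPM in control and 2.39 to 3.40 TPM in MT-treated libraries. CPT1A had 9.27, 9.35 and 20.33 TPM in control, where 1 library was high, and 9.02 to 10.06 TPM in MT-treated libraries. After quantile normalization 12 genes of this list rose and 16 fell, and with a filter at 5 TPM 11 rose and 10 fell.

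Among the enzymes that set the levels of AMP, ADP and ATP, which the gamma subunits sense, 8 of 13 tested genes were higher and 5 lower (limma). These shares of 61.5% and 38.5% stood beside 61.6% and 34.1% among all tested genes. Of the 8 that were higher, 4 stayed under 1 TPM in every control library. AK4, a mitochondrial adenylate kinase, fell from 87.6 ± 1.90 to 1.23 ± 0.0954 TPM, and AK3, another mitochondrial member of that family, fell from 78.5 ± 0.352 to 13.5 ± 0.545 TPM (SD, n = 3 each, adjusted p = 6.92e-10 and 4.17e-09 by limma). ADK, adenosine kinase, rose from 8.19 ± 0.778 to 51.3 ± 2.499 TPM, and ADSL, an enzyme of AMP synthesis, rose from 125 ± 1.16 to 196 ± 2.04 TPM (SD, n = 3 each, adjusted p = 1.17e-07 and 7.72e-08 by limma). APRT, which recovers adenine as AMP, was listed at 0 in control and measured 31.77, 35.86 and 32.44 TPM with MT. The directions of AK4, AK3, ADK and ADSL held under median centring and quantile normalization. That of APRT was fixed by the filter, as the gene was tested only through its values with MT. The difference of ADSL went from 0.64 on the log2(TPM + 1) scale to 1.12 after median centring.

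MO25 also binds kinases of the germinal centre kinase family, and all 5 such genes tested rose (limma). As 4 of them were listed at 0 in all control libraries and were tested only through their values with MT, this count was largely fixed beforehand, and it stood beside 61.6% higher among all tested genes. STK24, the only one with a value in every control library, rose from 9.59 ± 0.335 to 24.2 ± 4.71 TPM (SD, n = 3 each, adjusted p = 0.000169 by limma). The difference of STK24 went from 1.23 on the log2(TPM + 1) scale to 0.80 after quantile normalization. STK39 had the highest level of the 4, with 22.60, 14.59 and 24.36 TPM in the libraries given MT.

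**Figure D5:**
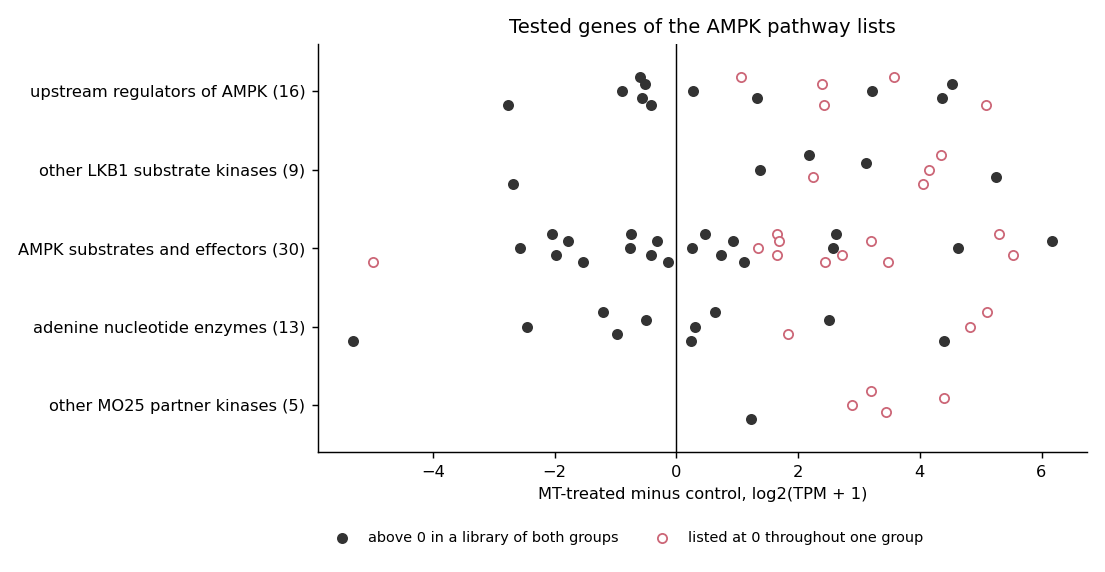
Difference between MT-treated and control means on the log2(TPM + 1) scale for each tested gene of the 5 lists, with the number of genes tested in brackets and points spread vertically for legibility. Open points are genes listed at 0 throughout 1 group, whose position depends on the pseudocount, and rises and falls are seen in every list except that of the 5 MO25 partner kinases.

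The genes with values closest to those of 3 members were found by the Euclidean distance of log2(TPM + 1) over the 6 libraries among tested genes with a symbol. DYTN was among the 2 closest to PRKAA1, at a distance of 0.0207. MED19 and SRSF6 were closest to PRKAG1, at 0.123 and 0.126. NAT9 was closest to STK11, at 0.0782. With 2 groups of 3 libraries, likeness of this kind reflects little more than a pair of group levels.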

How the data were processed

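RNA of 6 pools of bovine blastocysts was sequenced. According to the methods and the submitters' processing notes, reads were checked with FastQC 0.11.9, aligned with STAR 2.7.9a and counted per gene with featureCounts (Subread 1.6.3). The methods name build ARS-UCD1.3, the notes ARS-UCD1.2. The methods describe Smart-seq2 and the labels a TruSeq kit. The authors deposited TPM rounded to 2 decimals. How counts became TPM is not given in the sources used here. TPM hold no depth, so no counting interval is given, and p-values measure only the spread between these libraries.

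Groups, replicate numbers and columns came from the labels, and MT concentration, maturation time and pool size from the methods. Genes reaching 1 TPM in 3 or more libraries were tested on log2(TPM + 1) over all 6 libraries by lmFit and eBayes with an intensity trend (limma 3.58.1, R 4.3.3), with Benjamini-Hochberg adjustment over all tested genes and a threshold of 0.05. The fit was tested on simulated data in which few genes changed, unlike in these libraries, so that test does not bear on the number of calls. Tables and figures used Python 3.11.15, pandas 2.3.3, numpy 2.4.6 and matplotlib 3.10.9.

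The members and lists were chosen with earlier results of these data known. Lists came from general knowledge. Named are all members, PRKAG3 and CAB39L. From each list, among called genes whose groups do not overlap, the 2 largest rises and 2 largest falls above 0 in all libraries are named, and the most abundant gene listed at 0 throughout 1 group. The 2 nearest genes of PRKAA1, PRKAG1 and STK11 are also named, except 2 that are not reported here. Each library was left out in turn, and the fit was repeated with quantile normalization, a replicate block, median centring, a filter at 5 TPM or none, a pseudocount of 0.1 and no trend. Testing only genes above 0 in every library was chosen after seeing the data. Sequences and coordinates were not used here.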

Additional observations from a re-analysis of the deposited data

How the results depend on the processing

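The pooled counts of the 73 list genes and of all tested genes that were higher or lower stayed within 1.5 times their values under median centring, the replicate block, a filter at 5 TPM or none, a pseudocount of 0.1 and no trend. With quantile normalization the list genes that fell rose in number from 22 to 34, while the other pooled counts stayed within that range. Single lists moved more under quantile normalization, median centring or the filter at 5 TPM, as given beside them. The member counts rest on overlap of TPM among members kept by the filter, so the pseudocount, trend and block could not move them. With a filter at 5 TPM or none they stayed at 5 higher and 3 lower. After median centring or quantile normalization 6 members were higher and 3 lower. Among all tested genes, 8423 were wholly higher and 3052 wholly lower after median centring, and 5689 and 5415 after quantile normalization. Restricting the test to genes above 0 in all 6 libraries, chosen after seeing the data, left 2814 of all tested genes, 20 list genes and 1 member (CAB39) higher, with 4, 4, 7, 4 and 1 genes higher in the 5 lists in the order described, because genes at 0 in control were removed.

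With each library left out in turn, 7319 to 7338 tested genes were higher and 4004 to 4049 lower, 49 to 50 list genes were higher and 22 to 22 lower, and 5 to 5 members were higher and 3 to 4 lower. The fourth was STRADB, whose groups no longer overlapped without control replicate 1. With the replicate number as a block, 7379 tested genes were higher and 4082 lower, and the pooled counts of list genes that rose and fell were 49 and 22. Libraries with the same number did not deviate together from their group means (r of -0.011, -0.001 and 0.059), so the numbers were not taken as pairs, although libraries of both groups may share production runs that the labels do not give. Of 289 fits of the 21 named list genes under the alternatives, 288 kept direction and significance, though sizes moved. The 21 genes were picked among called genes by size of difference or by level, so kept calls say little of the other list genes. Named genes under 1 TPM in every control library were tested only through their values with MT. The 1 fit that reversed was that of BRSK1, at -0.21 after quantile normalization. The cause was not tested.

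Precision is limited by 3 libraries a group, and depth, which TPM do not hold, was not used here.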
